A study of Mus musculus with 4 samples.

Results

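Fatty acid desaturases and elongases are the enzymes that set how long and how unsaturated the acyl chains of a liver cell are. The family was read here through 10 genes, *Fads1*, *Fads2*, *Fads3*, *Scd1*, *Scd2*, *Elovl1*, *Elovl2*, *Elovl3*, *Elovl5* and *Elovl6*, in livers of *Rap1*-deficient mice set against livers of wild-type mice. The members were listed by name, and every probe whose transcript annotation leads to one of them was kept, which gave 11 probes of the 55681 on the array and 10 of 19752 named genes. *Elovl1* had 2 probes and each other member had 1. The members were chosen by enzyme family and with their log2 ratios in the same genotype contrast already known, so those ratios, and the side of a threshold on which each falls, are given as a description and support nothing. No p-value is printed for a member, and no threshold on a value was applied in choosing them.

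RAP1, encoded by *Terf2ip*, is a subunit of the shelterin complex at telomeres that also binds elsewhere along chromosomes. The mice compared were *Rap1*-/- animals, made by crossing mice with a floxed *Rap1* gene to mice carrying EIIa-cre and then breeding the cre out, and *Rap1*+/+ wild-type animals. The deletion is present in the whole body, so a liver value does not separate what arises in the liver from what arises in other organs. Per the labels all animals were 30 weeks old on a mixed C57BL6 (90%) and 129SV (10%) background, whereas the text of the study describes female mice of a somewhat later age; the labels give no sex. Each of the 4 arrays carried liver RNA of both genotypes in different dyes. On 3 arrays (replicates 1, 2 and 3) *Rap1*-/- RNA was in Cy5 and wild-type RNA in Cy3, and on the dye swap, numbered 1 and treated as a repeat of replicate 1, the dyes were exchanged. The design therefore holds 3 pairs of livers, and all values below are log2 ratios of *Rap1*-/- over wild-type, with the sign of the swap already turned.

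Desaturases insert a double bond into an acyl-CoA. The stearoyl-CoA desaturases (SCD) make monounsaturated chains from saturated ones, and FADS1 and FADS2 introduce the bonds that turn dietary linoleic and alpha-linolenic acid into long polyunsaturated chains. The ELOVL proteins carry out the first and rate-limiting step by which a chain is lengthened by a unit of malonyl-CoA, each with its own preferred substrates, and in liver many of these genes are known to be under the control of SREBP-1c, LXR and PPARalpha.

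The deleted gene and the liver markers came first. One probe of *Terf2ip* read -1.74, -1.92 and -1.91 on the arrays with *Rap1*-/- in Cy5 and -1.68 on the swap, low on all 4 as the dye labels require. It was not well above background in *Rap1*-/- RNA on any array (0 of 4) and was well above it in wild-type RNA on 4 of 4, which makes it at least 3.33-fold lower in *Rap1*-/- livers. This bound sets the mean of the brighter group against, on each array, the lowest signal still well above background or the dim probe's own signal, whichever was higher. The other *Terf2ip* probe had ratios of 1.17, 1.07, 0.88 and, on the swap, 0.72, and where either probe lies relative to the deleted part was not determined. All 8 hepatocyte markers examined were well above background in both genotypes. The replicates with *Rap1*-/- in Cy5 correlated with one another at 0.64 to 0.85 over all tested probes, while the swap correlated with them at -0.24 to -0.29 and had a narrower spread (SD of the log2 ratios 0.24, against 0.48 to 0.51). For this reason the swap value stands beside the ratios of every member probe below.

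Of the 11 member probes, 4 lay past the threshold of the fit on the higher side in *Rap1*-/- livers, 1 on the lower side and 6 short of it. The fit was limma on 3 pairs, with the swap averaged into pair 1 and a false discovery rate under 0.15 over all 27513 tested probes. The same threshold called 34.5% of all tested probes, 20.8% as higher and 13.7% as lower, so a call is a common event in these arrays, and since the members were chosen with these ratios known, their calls are no test of them. All 11 member probes were well above background in both genotypes on all 4 arrays, and none owed its place to one genotype. Their median log2 fold change was 0.21, beside 0.03 over all tested probes, and their median on the swap was -0.02. *Fads1*, *Scd2*, *Fads2* and the dimmer *Elovl1* probe were the higher calls and *Elovl2* the lower one. With 3 pairs the calls rest on the spread between pairs only. Only pair 1 has a dye swap, so in the other pairs genotype and dye cannot be told apart. The fold changes, the spread between pairs and the calls therefore carry any dye difference of those pairs. Of all called probes, 36.2% kept their sign on the swap. Among the higher calls 69.5% were negative there, and among the lower calls 44.9% were. In whole liver a lower number of cells of one type and less RNA per cell cannot be told apart.

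**Figure D1:**
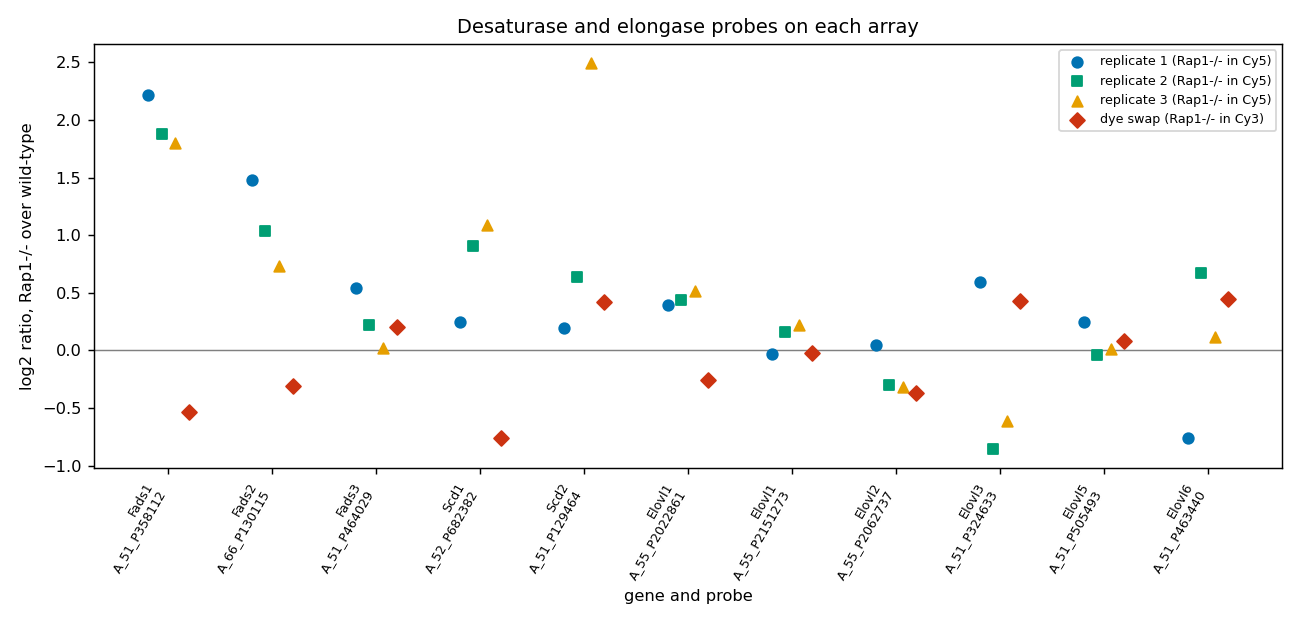
Log2 ratio (*Rap1*-/- over wild-type, vertical axis) of each of the 11 member probes on the 4 arrays, 1 point per array. *Fads1* stands at 1.80 to 2.22 on the arrays with *Rap1*-/- in Cy5 and at -0.54 on the dye swap, *Scd2* is above 0 on all 4 arrays with its top value of 2.49 on replicate 3, and the 4 *Elovl* genes other than *Elovl1* lie on both sides of 0.

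The front-end desaturases, which work on polyunsaturated chains, included the member with the highest fold change. *Fads1* encodes the delta-5 desaturase, the enzyme that forms arachidonic and eicosapentaenoic acid. Its ratio was 2.22 on replicate 1, 1.88 on replicate 2, 1.80 on replicate 3 and -0.54 on the dye swap. The 3 Cy5 arrays therefore all placed *Rap1*-/- above wild-type and the swap placed it below. With pair 1 as the mean of its 2 arrays, the normalised log2 intensities were 12.48, 12.60 and 12.51 in *Rap1*-/- livers and 11.64, 10.73 and 10.71 in wild-type livers. These averaged values did not overlap. Single arrays did, since on the swap wild-type RNA, at 12.61, lay above *Rap1*-/- RNA, at 12.07. The log2 fold change was 1.51 ± 0.22 (SE, n = 3 pairs), past the threshold. This SE holds none of the gap of 2.76 between the 2 arrays of pair 1. With a term for the dye over the 4 arrays the value was 0.72, less by over 1.5 times, and still past it. That fit takes the swap, a repeat of pair 1, as a separate array and the only one of its orientation, so its error holds no spread of the swap.

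*Fads2*, the delta-6 desaturase that opens the same route, had the same layout at a smaller size. Its ratios were 1.48, 1.04 and 0.74, with -0.31 on the swap. Intensities were 9.04, 8.98 and 8.84 in *Rap1*-/- livers and 8.46, 7.94 and 8.10 in wild-type livers, again without overlap once pair 1 was averaged. On the swap alone wild-type RNA, at 8.88, lay above *Rap1*-/- RNA, at 8.57, and the gap between the arrays of pair 1 was 1.79. The log2 fold change of 0.79 ± 0.11 (SE, n = 3 pairs) was past the threshold, and the value with a dye term, 0.39, was not.

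*Fads3*, whose product acts on sphingoid bases and on some monounsaturated chains, gave ratios of 0.54, 0.22 and 0.02, with 0.21 on the swap. It was thus above 0 on all 4 arrays, as were 10.6% of all tested probes, but by little. Intensities were 8.44, 8.30 and 8.18 in *Rap1*-/- livers and 8.07, 8.08 and 8.15 in wild-type livers, so that the groups met almost at replicate 3. Its log2 fold change of 0.21 ± 0.10 was not past the threshold, whereas 0.26 without the swap and 0.40 with median centring in place of loess were. Without replicate 1 and its swap it was 0.12. In the mouse *Fads3*, *Fads2* and *Fads1* stand next to each other on chromosome 19 with 0 annotated protein-coding genes between neighbours, and 6 of the 10 members are on that chromosome, the others being *Scd1*, *Scd2* and *Elovl3*.

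The stearoyl-CoA desaturases form oleate and palmitoleate. *Scd1*, the main isoform of liver, had ratios of 0.25, 0.90 and 1.09 and, on the swap, -0.76. The 2 arrays of pair 1 thus lay on opposite sides of 0. Intensities were 15.35, 15.91 and 16.13 in *Rap1*-/- livers and 15.61, 15.01 and 15.03 in wild-type livers, which overlapped through pair 1. The log2 fold change, 0.58 ± 0.27 (SE, n = 3 pairs), was not past the threshold. It was past it at 0.75 without the swap and at 0.998 without replicate 1, which leaves out the swap as well. Both of these fits hold only arrays with *Rap1*-/- in Cy5, so genotype and dye cannot be told apart in them. With a dye term the value was -0.01.

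*Scd2*, the isoform best known from brain and from the liver of newborn mice, was the second member above 0 on all 4 arrays. Its ratios were 0.20, 0.64 and 2.49, with 0.42 on the swap. Replicate 3 stood far above the rest. In *Rap1*-/- livers the intensities were 8.99, 9.20 and 11.21 and in wild-type livers 8.68, 8.56 and 8.72, so that the wild-type livers were close to each other (8.66 ± 0.08, SD, n = 3) and the *Rap1*-/- livers were not (9.80 ± 1.23, SD, n = 3). The log2 fold change was 1.15 ± 0.42 (SE), past the threshold. Without replicate 3 it was 0.48 and only just past the threshold. It fell short of the threshold with the swap as its own replicate (0.94), with median centring (1.33), without replicate 2 (1.40) and without a filter on dim probes (1.15). With a dye term it was 0.77. The range of *Scd2* over the 3 pairs, 2.18 log2 units, was wider than that of 99.6% of all tested probes, whose median range was 0.30. *Scd4* lies between *Scd2* and *Scd1* on chromosome 19, the 4 *Scd* genes are close copies, and which of them a probe binds was not determined.

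**Figure D2:**
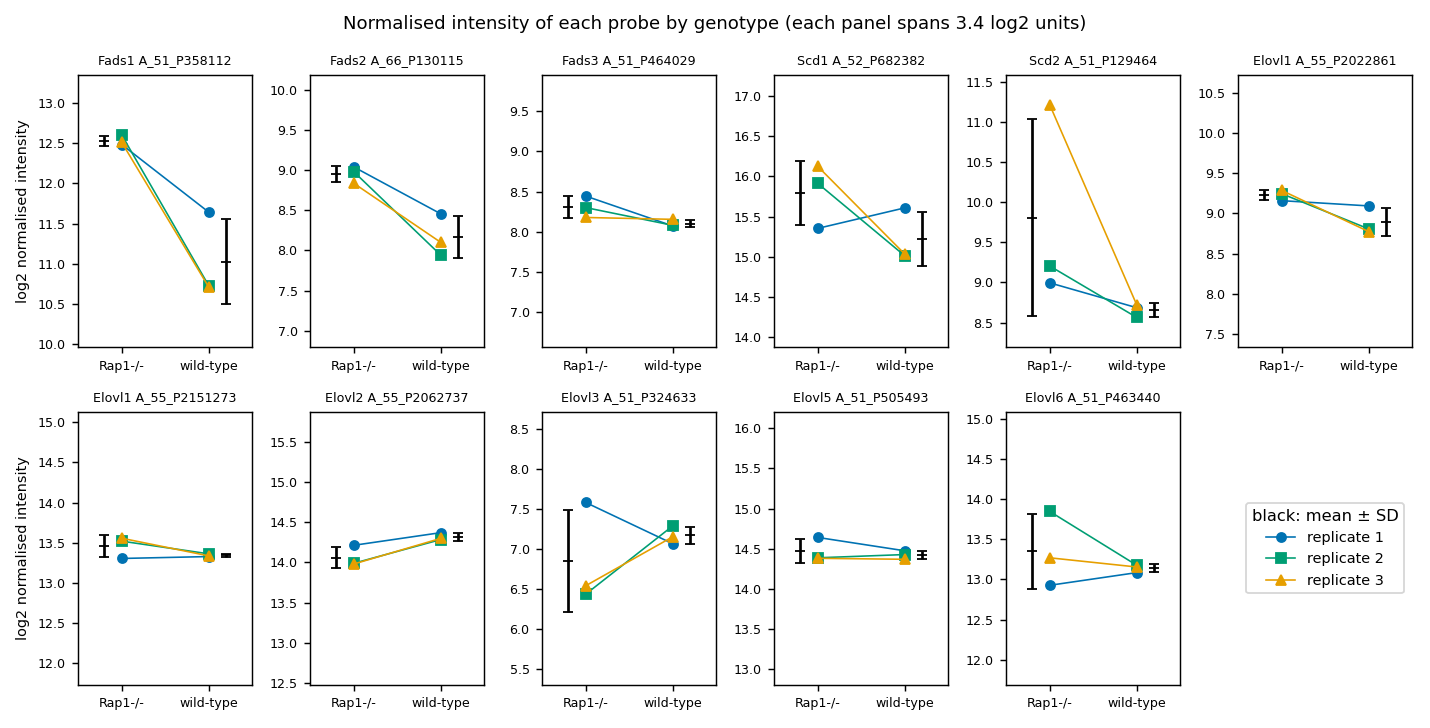
Normalised log2 intensity (vertical axis, each panel with its own position and an equal span) of the 11 member probes in the 3 *Rap1*-/- livers and the 3 wild-type livers, with lines joining the livers of a pair; pair 1 is the mean of its 2 arrays. The 3 *Rap1*-/- points lie above the 3 wild-type points for *Fads1*, *Fads2*, *Fads3*, *Scd2* and the dimmer *Elovl1* probe and below them for *Elovl2*.

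Among the elongases the differences were small or went both ways. *Elovl1* elongates saturated and monounsaturated chains into very-long-chain species. Its dimmer probe had ratios of 0.39, 0.44 and 0.51, with -0.26 on the swap, and a log2 fold change of 0.34 ± 0.12 (SE, n = 3 pairs), past the threshold. Its brighter probe gave -0.03, 0.16 and 0.22, with -0.02 on the swap, and 0.12 ± 0.09, short of it. The probes of this gene therefore had different calls, and with a dye term the dimmer one stood at 0.09, not past the threshold.

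*Elovl2* lengthens polyunsaturated chains on the way to docosahexaenoic acid and was the only member called lower. Ratios were 0.05, -0.30 and -0.32, with -0.37 on the swap. On pair 1 the array with *Rap1*-/- in Cy5 was close to 0 while the swap was low. Intensities of 14.21, 13.99 and 13.98 in *Rap1*-/- livers lay below the 14.37, 14.28 and 14.30 of wild-type livers. The log2 fold change was -0.26 ± 0.09 (SE, n = 3 pairs), and -0.28, not past the threshold, with a dye term. *Elovl5*, which lengthens the products of FADS2, differed least of all members, with ratios of 0.25, -0.04, 0.01 and, on the swap, 0.08, and a log2 fold change of 0.05 ± 0.09, short of the threshold.

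*Elovl3*, an elongase of saturated and monounsaturated chains known from brown fat, skin and the circadian rhythm of liver, was higher in *Rap1*-/- RNA on both arrays of pair 1 and lower on the other arrays. Its ratios were 0.60 on replicate 1 and 0.43 on the swap, against -0.85 on replicate 2 and -0.61 on replicate 3. The intensities in *Rap1*-/- livers were 7.58, 6.44 and 6.54, and in wild-type livers 7.07, 7.29 and 7.15. The *Rap1*-/- liver of pair 1 lay above every wild-type liver and the others below them. The log2 fold change of -0.32 ± 0.27 was not past the threshold, and that without replicate 1 and its swap, -0.73, was. Only arrays with *Rap1*-/- in Cy5 remained in that fit.

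*Elovl6*, which lengthens palmitate to stearate, had ratios of -0.76, 0.67 and 0.11, with 0.44 on the swap. Pair 1 was low on one array and high on the other, a gap of 1.20. Intensities were 12.93, 13.85 and 13.27 in *Rap1*-/- livers and 13.08, 13.18 and 13.15 in wild-type livers, which overlapped. Its log2 fold change was 0.21 ± 0.17 (SE, n = 3 pairs), short of the threshold. Without replicate 1 and its swap, with only arrays of *Rap1*-/- in Cy5 left, it was 0.39, past it.

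The members differed from one another in the sign on the swap, in spread and in the separation of the livers. 4 probes (*Fads1*, *Fads2*, *Scd1* and the dimmer *Elovl1* probe) were above 0 on the 3 Cy5 arrays and below 0 on the swap, a layout that 25.1% of all tested probes had, and 0 member probes had the opposite layout, which 18.8% of all probes had. 2 were above 0 on all 4 arrays, and 0 were below 0 on all 4, beside 10.9% of all probes. A fit with genotype and dye gave 1 member probe past the threshold for genotype (*Fads1*, higher), beside 6.7% of all probes (4.61% higher and 2.09% lower). For the dye it gave 4, all positive, beside 27.6% of all probes (16.9% positive). Over the 3 pairs *Scd2*, *Elovl3* (1.36 log2 units) and *Scd1* (1.35) had the widest ranges of the member probes. The livers were compared with pair 1 as the mean of its arrays. In 5 of the 11 probes the 3 *Rap1*-/- intensities all lay above the 3 wild-type ones, which 24.1% of all probes showed. In 1 probe they all lay below, which 19.1% showed.

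Sequence upstream of the members was read where a promoter window was at hand, to set called and uncalled members side by side. There was no window for *Fads1*, *Scd1*, *Scd2* or *Elovl3*, so the motif counts below leave these genes out. The RefSeq table of promoter windows (assembly GRCm38.p6) held 8 windows of 6 members, and the 250 bases before the start were searched on both strands for 5 motifs. These were TCACNCCAC (the sterol regulatory element bound by SREBP), CCAAT (the box bound by NF-Y), CACGTG (an E-box), GGGCGG (a GC box) and the direct repeat bound by PPAR with RXR, which is AGGTCA 2 times with 1 base between. Shown are a window of *Fads2* and of *Elovl1*, each with a call higher, one of *Elovl2*, with a call lower, and one of *Elovl5*, with no call. All run 5′ to 3′ on the strand of the gene, and capitals mark the GC box, the CCAAT box and the E-box on either strand.
Fads2 (chr19:10101504-10101753, minus strand): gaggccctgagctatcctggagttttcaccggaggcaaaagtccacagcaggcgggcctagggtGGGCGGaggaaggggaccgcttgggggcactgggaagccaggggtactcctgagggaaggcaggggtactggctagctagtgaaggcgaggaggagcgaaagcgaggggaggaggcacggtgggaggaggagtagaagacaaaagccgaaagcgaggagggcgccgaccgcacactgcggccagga
Elovl1 (chr4:118427843-118428092, plus strand): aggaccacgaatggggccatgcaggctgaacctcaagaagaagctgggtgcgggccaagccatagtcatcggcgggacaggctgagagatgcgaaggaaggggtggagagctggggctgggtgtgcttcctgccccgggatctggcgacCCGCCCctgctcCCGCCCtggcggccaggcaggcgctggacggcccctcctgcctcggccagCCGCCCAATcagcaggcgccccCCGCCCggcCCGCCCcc
Elovl2 (chr13:41220404-41220653, minus strand): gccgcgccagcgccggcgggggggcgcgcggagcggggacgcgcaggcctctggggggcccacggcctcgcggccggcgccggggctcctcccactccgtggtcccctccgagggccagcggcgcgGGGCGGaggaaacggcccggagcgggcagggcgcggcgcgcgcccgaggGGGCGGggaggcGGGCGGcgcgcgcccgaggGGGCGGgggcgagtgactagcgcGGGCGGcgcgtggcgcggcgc
Elovl5 (chr9:77917115-77917364, plus strand): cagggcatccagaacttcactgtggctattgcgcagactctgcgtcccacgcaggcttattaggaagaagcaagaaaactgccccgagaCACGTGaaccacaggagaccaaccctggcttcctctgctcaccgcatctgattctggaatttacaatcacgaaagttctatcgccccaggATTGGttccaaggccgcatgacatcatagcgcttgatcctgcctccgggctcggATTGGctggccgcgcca
The window of *Fads2* held 1 GC box, that of *Elovl1* 5 GC boxes of which 1 ran into its single CCAAT, that of *Elovl2* 5 GC boxes in a window of 87.2% G and C, and that of *Elovl5* 2 CCAAT and the only CACGTG. Over the 8 member windows the GC box was found in 5, beside 32.7% of 32851 promoter windows, CCAAT in 3, beside 33.8%, and CACGTG in 1, beside 6.02%. TCACNCCAC was in 0, beside 1.05%, and the direct repeat in 0, beside 0.0335%. GC boxes were thus held by windows of the higher *Fads2* and *Elovl1*, of the lower *Elovl2* and of *Fads3*, which had no call.

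The other genes of the pathway were taken from 5 lists, with 1 probe per gene (the brightest tested one). Of 61 listed genes 54 were tested, of which 18 passed as higher, 7 as lower and 29 did not pass, beside the 20.8% and 13.7% of all probes given above. The lists were drawn up with earlier results of these arrays known, so the count of each list below is a description, to be read beside those same shares. Among the 21 genes with more than 1 tested probe, 13 had probes with different calls, so a count by gene depends on the probe.

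The closest relatives of the members were tested in 4 of 7 cases, with 2 higher and 1 lower. *Scd3*, a further stearoyl-CoA desaturase, had ratios of 1.03, 1.86 and 1.56 with -0.85 on the swap, and a log2 fold change of 1.17 ± 0.34 (SE, limma adjusted p = 0.0816). Like *Scd1*, it was below 0 on the swap. Its dimmer probes gave 0.48 with 0.06 on the swap, which passed, and -0.14 with -0.01, which did not. *Elovl7*, an elongase of saturated chains, was well above background in *Rap1*-/- RNA on 4 of 4 arrays and in wild-type RNA on 0 of 4, so it entered the fit only through the genotype in which it was brighter, and its place among the higher genes is no support for a difference. Its wild-type signal, although not well above background, lay over the lowest such signal, so the bound of at least 1.39-fold higher equals the measured ratio (limma adjusted p = 0.0711). Its swap value was 0.40. *Degs1*, which puts the double bond into ceramide, fell by 0.62 on the log2 scale (limma adjusted p = 0.0638) with 0.27 on the swap.

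Of the remaining steps of the elongation cycle and the electron supply of the desaturases, 3 of 10 tested genes were called higher and 0 lower. They were the ketoacyl-CoA reductase *Hsd17b12* (log2 fold change 0.48 ± 0.09), the enoyl-CoA reductase *Tecr* (0.48 ± 0.09) and the dehydratase *Hacd3* (0.37 ± 0.09; SE, n = 3 pairs), with limma adjusted p-values of 0.0431, 0.0432 and 0.0595. They act in the steps that follow the ELOVL reaction. Their swap values were -0.17, 0.000305 and -0.12. Cytochrome b5 and its reductases, which pass electrons to the desaturases, did not pass in the brightest probe of any of their 4 tested genes; a dimmer probe of *Cyb5r3* passed as higher (1.24, swap -0.83, limma adjusted p = 0.0492) and one of *Cyb5b* as lower (-0.36, swap -0.14, limma adjusted p = 0.0712).

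The supply of saturated chains and their activation to acyl-CoA had 2 of 14 tested genes higher and 5 lower, with a list median of -0.05. *Acss2*, which makes acetyl-CoA from acetate, fell by 0.71 ± 0.10 (log2, limma adjusted p = 0.0402), although its swap value was 0.06, and its dimmer probe did not pass at -0.05 with -0.34 on the swap. The acyl-CoA synthetases moved in both directions. *Acsl3* fell by 0.61 with 0.04 on the swap and *Acsl4*, which favours arachidonate, fell by 0.42 with -0.16 on the swap, while *Acsl5* rose with a log2 fold change of 0.51 and a swap value of -0.07 (limma adjusted p = 0.0420, 0.0507 and 0.0588). The other calls were *Acsl1* and *Acacb*, lower, and *Slc25a1*, the mitochondrial citrate carrier, higher; a dimmer *Acsl1* probe was called higher, and a dimmer *Acacb* probe did not pass at 0.60 with -0.37 on the swap.

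Of 15 tested regulators of these genes 5 were called higher and 1 lower. *Ppara*, the receptor that fatty acids activate in liver, passed as higher in its brightest probe (log2 fold change 0.80 ± 0.11, limma adjusted p = 0.0402). The ratios were 0.99, 0.94 and 0.90 with 0.15 on the swap. Its other probes gave 0.68 with 0.27 on the swap, which passed, and -0.21 with 0.39, which did not. The study reports the other direction, with lower *Ppara* by qPCR in livers of younger *Rap1*-deficient females and a lower protein level. What lies behind the difference was not tested. *Pparg* rose by 0.51 and was above 0 on all 4 arrays, with 0.35 on the swap. *Mlx*, the partner of the sugar-sensing factor ChREBP, rose by 0.42 with 0.05 on the swap. *Insig1*, an anchor of the SREBP complex and itself a target of SREBP, had ratios of 1.46, 2.36 and 1.43 with -0.65 on the swap (log2 fold change 1.40 ± 0.35, limma adjusted p = 0.0626). Outside the naming rule, and chosen after its values were seen, *Srebf1*, the gene of SREBP-1, had ratios of 0.73, 1.86 and 0.71 with -0.09 on the swap and rose by 0.96, and *Scap*, the escort of SREBP, fell by 0.41 with -0.48 on the swap.

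Enzymes that put unsaturated chains into lipids, or shorten them in peroxisomes, had 6 of 11 tested genes higher and 0 lower. Over all tested probes 20.8% were higher and 13.7% lower, and the list was drawn up with earlier results known, so the count is a description. On the swap 7 of the 11 genes were above 0. *Gpam*, which starts glycerolipid synthesis, rose with a log2 fold change of 0.86 and a swap value of 0.04. *Lpcat3*, which loads arachidonate onto phospholipids, rose by 0.52 with -0.21 on the swap. *Agpat2*, which makes phosphatidic acid, rose by 0.44 with 0.08 on the swap. The limma adjusted p-values of these genes were 0.0546 for *Gpam*, 0.0483 for *Lpcat3* and 0.0463 for *Agpat2*.

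Several members varied over the arrays alongside other genes, which were chosen after their values were seen. *Elovl6* was low on replicate 1 and highest on replicate 2. The same layout was seen in *Fasn*, the fatty acid synthase (-0.63, 1.15, 0.11, swap -0.20), and in *Acly*, which supplies its acetyl-CoA (-1.04, 0.59, 0.16, swap -0.07). It was seen too in *Acaca*, which makes malonyl-CoA (-0.38, 0.71, 0.18, swap 0.42), and in *Me1*, which supplies NADPH (-0.63, 0.58, -0.03, swap 0.19). None of these 5 probes was past the threshold. The layout depends on the probe, since a dimmer probe each of *Acaca* (0.80, 1.65, 0.94, swap -0.24), *Acly* (0.64, 1.53, 0.86, swap -0.28) and *Me1* (0.26, 0.95, 0.45, swap -0.04) was above 0 on replicate 1 and passed as higher, though it too was highest on replicate 2.

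*Scd2* was highest on replicate 3, and so were macrophage markers. Of 8 listed markers of liver macrophages 7 were tested (*Cd68* was not), and their median ratio was -0.44 on replicate 1, 0.23 on replicate 2, 1.38 on replicate 3 and -0.41 on the swap. Their summed normalised intensity (log2) was 14.21, 14.83 and 15.81 in *Rap1*-/- livers 1, 2 and 3 and 14.63, 14.65 and 14.57 in wild-type livers. On replicate 3 *Marco* stood at 2.71, *Lyz2* at 1.90 and *C1qa* and *Adgre1* at 1.38, with swap values of -0.60, -0.53, -0.41 and -0.31 in the same order. *Csf1r* stood at 1.34, *Clec4f* at 0.97 and *Vsig4* at -0.14, with -0.14, -0.46 and 0.13 on the swap. All 7 were well above background in both genotypes, *Lyz2* passed as higher, *Vsig4* passed as lower and the other 5 did not pass. On replicates 1 and 2 and on the swap *Scd2* was above 0, whereas the macrophage median was below 0 on 2 of those arrays. The part of these cells in the *Scd2* value was not tested.

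*Elovl3* was high on pair 1, and so were markers of fat cells. Of 6 adipocyte markers, 3 were tested, and all 3 were highest on pair 1. *Cfd* (adipsin) had ratios of 2.35, 0.40 and -1.12 with 2.28 on the swap, *Retn* had 1.25, 0.10 and 0.07 with 1.35, and *Cidec* had 1.53, 0.43 and 0.24 with 1.16. *Cidec* passed as higher and the other 2 did not pass. Only *Cidec* was well above background in both genotypes on 4 of 4 arrays. *Retn* was so in wild-type RNA on 3 of 4, and thus entered the test only through *Rap1*-/- RNA, where it was brighter. *Cfd* was so in *Rap1*-/- RNA on 3 of 4 and entered only through wild-type RNA. *Adipoq*, *Lep* and *Plin1*, which define adipocytes, were too dim to enter the test. The summed normalised intensity (log2) of the 3 tested markers was 10.10, 8.77 and 8.05 in *Rap1*-/- livers and 8.34, 8.44 and 8.28 in wild-type livers. The part of fat cells in the *Elovl3* value was not tested.

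**Figure D3:**
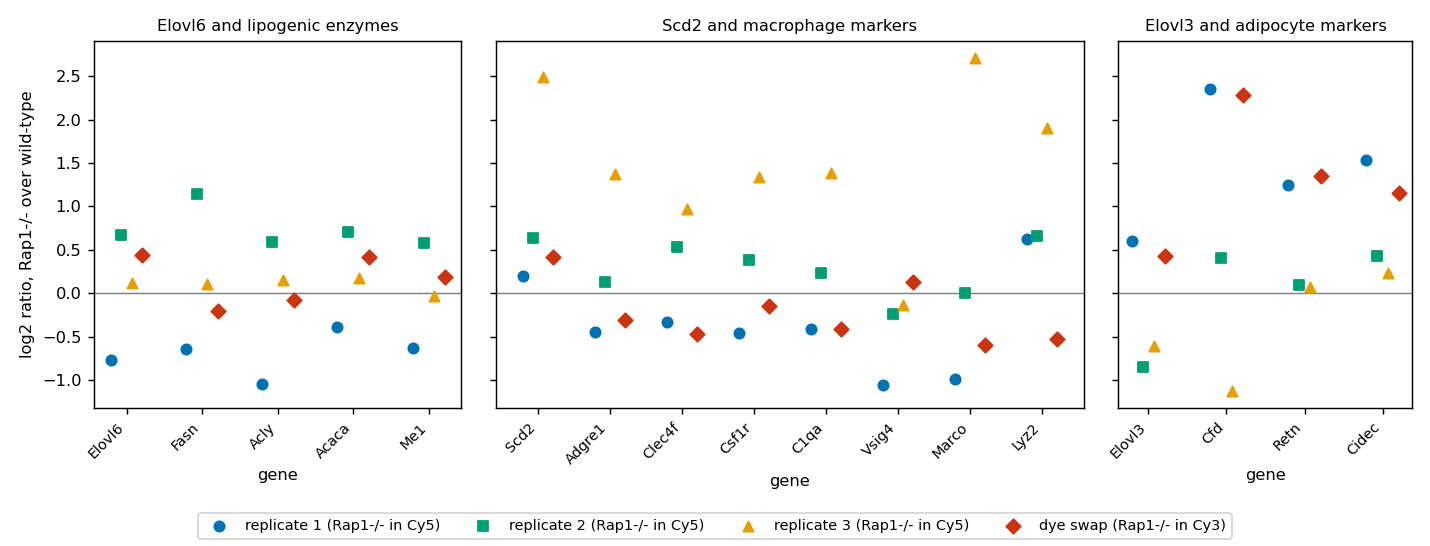
Log2 ratio (*Rap1*-/- over wild-type, vertical axis) on each of the 4 arrays for *Elovl6* with 4 lipogenic enzymes, *Scd2* with 7 macrophage markers and *Elovl3* with 3 adipocyte markers. Replicate 2 is the highest array for *Elovl6* and its companions, replicate 3 for *Scd2* and 6 of the 7 macrophage markers, and both arrays of pair 1 for *Elovl3* and the adipocyte markers.

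The named genes whose 4 ratios lay nearest to those of *Fads1*, the member with the highest fold change, were *Cyp2d22* (Euclidean distance 0.16 log2 units over 4 arrays), *1700022A21Rik* (0.18) and *Galm* (0.20). All of them had the change of sign on the swap, at -0.61, -0.42 and -0.68. Nearest to *Elovl3*, the member with the lowest fold change, were *Clpx* (0.33), *Hbb-b2* (0.35) and *Arl4a* (0.38), each above 0 on both arrays of pair 1 and below 0 on replicates 2 and 3.

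The calls of the members held to different degrees over 11 other ways of processing. *Fads1* kept its sign in all 11 and its call in 9, with log2 fold changes of 0.72 to 1.97. *Fads2* kept its sign in 11 and its call in 8 (0.39 to 1.08), *Scd2* its sign in 11 and its call in 6 (0.48 to 1.57). The dimmer *Elovl1* probe (0.09 to 0.52) and *Elovl2* (-0.31 to -0.07) kept their signs in 11 and their calls in 4 each. Without replicate 2, 0 member probes were past the threshold, and 7 of all 27513 probes were. In that fit 3 member probes had an unadjusted limma p under 0.05. The share of all probes under it was not counted, so this number is a description and supports nothing.

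**Figure D4:**
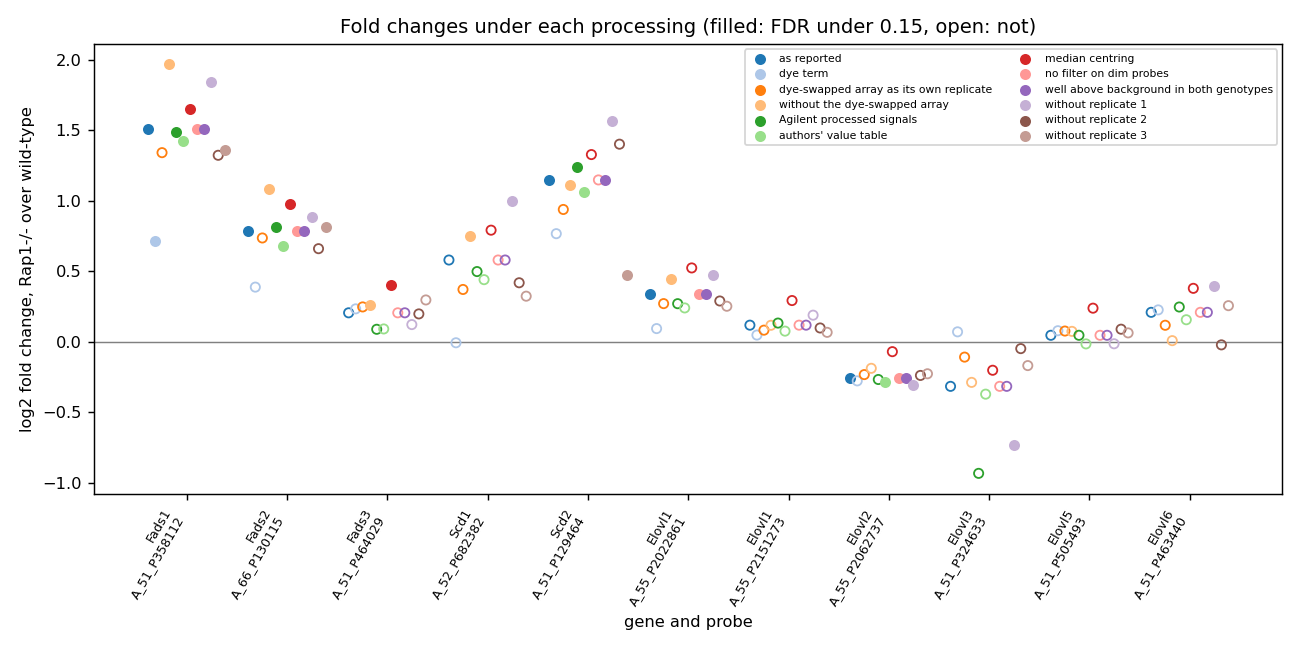
Log2 fold change (*Rap1*-/- over wild-type) of each member probe as reported and under each of 11 other ways of processing, with filled points for values past the threshold. *Fads1* spans 0.72 to 1.97 and *Fads2* 0.39 to 1.08, all above 0, while the values of *Scd1*, *Elovl3*, *Elovl5* and *Elovl6* fall on both sides of 0.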

How the data were processed

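Liver RNA of *Rap1*-/- and wild-type mice had been hybridised to 4 two-colour Agilent mouse arrays, all on 1 slide. The deposited scanner tables (Agilent Feature Extraction 10.7.3.1 per the file headers) hold median and background spot intensity for both dyes, processed signals, whose deposited intensity is already background-subtracted and dye-normalized, and spot flags. The deposited value table holds log2 ratios by the authors, for which the submitters' processing notes name limma; the sources used here do not give its background correction. Agilent's log10 ratio, deposited as the scanner software wrote it, served to read the direction of that table. The value table's column medians were -0.01, -0.02, -0.02 and 0.000826, and its columns correlated with the unturned scan ratios at 0.80, 0.78 and 0.77 and, on the swap, -0.65, so the swap was already turned there.

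Spot intensities were corrected with normexp (offset 50) and normalised by loess within each array (R 4.3.3, limma 3.58.1). Outlier-flagged and control spots were left out, and spots of a probe averaged. A probe was tested if, in 1 genotype or both, a share of 0.5 or more of its spots exceeded background clearly (Agilent's flag) on each array, which 27513 of 55681 probes (49.4%) were, and 46.8% of all probes could be named through RefSeq (GRCm38.p6) accessions. The swap was turned and averaged with replicate 1, and lmFit and eBayes were run on 3 pairs, with Benjamini-Hochberg adjustment over all tested probes and a false discovery rate under 0.15. Only the final fit was tried on simulated data, with 3 independent pair values per probe and no dye effect. The correction, normalisation and swap steps were not simulated. That flag was set for 50.1% to 56.4% of spots per dye and array, and 0 non-control spots were saturated. The number of arrays limits the precision.

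The members and all lists were chosen with earlier results of these data known. Named were all member probes, *Terf2ip*, up to 4 called genes per pathway list with the smallest p, and the 3 genes nearest to the members with the highest and lowest fold change; 1 gene under this rule is not reported here. Marker lists covered hepatocytes, macrophages, adipocytes, endothelium, stellate cells and fibroblasts, cholangiocytes and lymphocytes. Alternatives were a dye term, the swap as its own replicate or left out, Agilent processed signals, the value table, median centring, 2 other filters on dim probes, and each replicate left out in turn. Replicate 1 was left out together with its swap, so that fit held only arrays with *Rap1*-/- in Cy5.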

Additional observations from a re-analysis of the deposited data

Results flagged for a closer look

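For 4 member probes the ratio on the arrays with *Rap1*-/- in Cy5 differed from that on the swap, in that their dye coefficient lay past a false discovery rate of 0.15 in a limma fit over 4 arrays (the coefficient is the distance of each dye orientation from their midpoint). The coefficient was 1.25 ± 0.11 (SE) for *Fads1*, 0.76 ± 0.17 for *Scd1*, 0.70 ± 0.15 for *Fads2* and 0.35 ± 0.08 for the dimmer *Elovl1* probe, all with higher ratios where *Rap1*-/- was in Cy5. In the same fit 27.6% of all tested probes passed, 16.9% with a positive coefficient. The swap is 1 array, so its own spread was not measured and the 3 arrays with *Rap1*-/- in Cy5 supply all of the error. The swap also repeats pair 1 and was fitted as if separate. These are therefore descriptions of the member probes.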

How the results depend on the processing

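Over 121 alternative values of the 11 member probes, 86 kept their direction and their side of the threshold, 24 kept the direction and no longer passed, 6 newly passed and 5 changed sign. The changes of sign were *Scd1* (-0.00687) and *Elovl3* (0.071) with a dye term, *Elovl5* in the value table (-0.015) and without replicate 1 (-0.014; up to 0.089 without replicate 2), and *Elovl6* without replicate 2 (-0.022; up to 0.39 without replicate 1). The counts of calls below are given as higher and then lower. The reported counts were 5717 and 3771 for all probes, 4 and 1 for member probes and 18 and 7 for the other pathway genes. A dye term gave 1268 and 576 for all probes, 1 and 0 for member probes and 3 and 3 for pathway genes. The swap as its own replicate gave 27 and 56 for all probes, 0 and 0 for member probes and 0 and 0 for pathway genes. In that fit 2 member probes had an unadjusted limma p under 0.05, a description only, since the share of all probes was not counted. Lower calls numbered 6377 for all probes and 0 for member probes without the swap, 0 for member probes with Agilent processed signals, and 796 for all probes, 0 for member probes and 3 for pathway genes with median centring. Leaving out 1 replicate gave 1 to 7266 higher and 6 to 5330 lower for all probes, 0 to 6 and 0 to 2 for member probes and 0 to 23 and 0 to 11 for pathway genes, the lowest of each without replicate 2; without replicate 3 the counts for all probes were 1903 and 832. The causes were not tested. Of all calls 60.3% were higher as reported, 87.7% with median centring, which put the median of all probes at 0.17, 49.3% with Agilent processed signals and 45.3% in the value table. The fit as reported is paired by array, since each array holds both livers of a pair, and no further block was fitted. With 3 pairs and 1 swapped array, the spread between pairs, which holds any dye difference, limits which probes pass.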

Other observations

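Markers of the remaining cell types were read on the same arrays. Of 33 listed markers of cells other than hepatocytes 26 were tested, of which 6 passed as higher and 1 as lower, beside 20.8% and 13.7% of all tested probes. In the endothelium 2 of 5 tested markers rose, *Pecam1* (log2 fold change 0.40, swap -0.09) and *Kdr*, a receptor of vascular endothelial growth factor, with ratios of 1.42, 1.72 and 1.65 and with -0.35 on the swap (log2 fold change 1.30 ± 0.25, SE, limma adjusted p = 0.0425). Among lymphocyte markers 1 of 3 tested rose, *Cd3e* of T cells, with 0.63, 0.80 and 1.02 and with -0.22 on the swap. Of the cholangiocyte markers 1 of 2 tested rose, *Krt19*, which was above 0 on all 4 arrays (0.50, 0.30, 0.46, swap 0.28). In stellate cells and fibroblasts 0 of 6 passed in limma. Among the 8 hepatocyte markers 1 rose, *Alb*, with a log2 fold change of 0.54 and a swap value of -0.53.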
